A study of Mus musculus with 62 samples.

Results

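The soleus of mice that carried a cachexia-inducing melanoma was compared with the soleus of mice that carried a melanoma without that effect, 6 weeks after the tumour cells were given. The compared libraries were the 5 labelled CAC at 6 weeks and the 5 labelled NCAC at 6 weeks, which is 10 of the 62 libraries in the series, and the choice rested on the labels alone. CAC mice carried cachectic melanoma cells, and NCAC mice non-cachectic melanoma cells. Mock-injected mice of the same week (Con, 5 libraries) and the CAC and NCAC groups of week 4 (5 libraries each) were used for comparison. All animals were female and 2 months old by the labels. On the strain the labels conflict: the sample entries name C57BL6/J, whereas the series' design names NCI Ath/nude, a strain without mature T cells, and both groups share whichever strain was used. The extraction text shared by all samples also mentions LLC cells, a mouse lung carcinoma line, which no group label names. The melanoma lines are not named in the labels, and with 1 kind of cells per group a difference between CAC and NCAC cannot be told apart from any other difference between the 2 cell populations. RNA of the whole muscle was sequenced from poly(A)-selected, strand-marked libraries. The labels describe libraries that share a group as biological replicates.

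Cachexia is the loss of muscle and fat that accompanies some tumours. Cytokines of the interleukin-6 family, which act through the shared receptor chain gp130, JAK kinases and the transcription factor STAT3, and glucocorticoid hormones, which act through a nuclear receptor, are both known to reach muscle in this state. Wasting muscle is known to tag its proteins with ubiquitin ligases for the proteasome and to enclose other material in autophagosomes for the lysosome. The soleus is a postural muscle rich in slow, oxidative fibres, so transcripts of mitochondria and of fat oxidation are abundant in it.

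Levels were deposited as TPM, a transcript's share of the library after correction for length. TPM adds to the same total in every library, and how deeply each library was read is unknown. Of 47643 genes, 13529 reached 1 TPM in at least 5 libraries and were tested with limma on log2(TPM + 1), in a fit of all 62 libraries and 12 groups. Alternative fits used the compared groups alone, left out the libraries of week 8, weighted the samples by quality or left out 1 library at a time, and are given beside results that they moved. Fold changes below are CAC over NCAC on that scale, which understates the change of low genes, and p values are adjusted over all tested genes. At an adjusted p under 0.05, 3328 genes were higher in CAC (24.6% of those tested) and 432 were lower (3.19%). The median of all genes was itself shifted, by 0.16 on the log2 scale. After a rescaling of libraries by the median ratio over genes, which moved that median to 0.01, 1258 genes were higher (9.3%) and 1358 lower (10%). All 1258 were among the 3328, and all 432 lower genes were also lower after the rescaling. Counts of most lists are therefore given on both scales. With the compared groups fitted alone 2540 genes were higher, 2095 of them among the 3328, and 463 were lower, 325 of them among the 432. In simulated data 100 genes of CAC were shifted by 0.5 and 100 by 1 on the log2 scale, in either direction. The fit of all 62 libraries found 56 and 94 of them and made 47 false calls, more than the threshold stands for. The fit of the compared groups by themselves found 45 and 94 and made 1 false call. The simulated noise was independent between genes, and far fewer genes were shifted than were called in the real data. The spread seen in each group's libraries was taken as that group's true spread, whereas the fit of all 62 libraries shares 1 spread per gene. Whether true spreads differ that much between groups was not tested, so the false calls hold for this setting only. A change of at least 2-fold was reached by 302 of the higher and 50 of the lower genes. All 5 CAC libraries lay above all 5 NCAC libraries in 1587 tested genes (11.7%) and below them in 299 (2.21%).

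The libraries of the CAC group were not alike. On the first principal component of the week 6 libraries, which held 44.0% of the variance, the CAC libraries lay between 11.5 and 47.6 and all NCAC and Con libraries below 0. CAC replicate 1 lay farthest out and CAC replicate 5 nearest to the others. CAC replicate 1 had the highest CAC value in 1977 of the 3328 higher genes, and CAC replicate 5 the lowest in 2391. Transcripts of the mitochondrial genome made up 33.1 ± 5.23% of the TPM in CAC, 39.1 ± 2.68% in NCAC and 39.8 ± 1.02% in Con (SD, n = 5 each). They were at 28.0% and 27.8% in CAC replicates 1 and 4 and at 40.0% in CAC replicate 5, which lay within the NCAC range. Without CAC replicate 1 the counts were 1802 higher and 229 lower genes. Without CAC replicate 4 there were 2201 higher genes, and without NCAC replicate 5, which lay farthest out on the other side, 2191. In NCAC replicate 3 the fast-fibre transcripts Myh4, Pvalb and Mybpc2 stood at 687, 815 and 177 TPM, against at most 26.1, 47.4 and 19.6 TPM in the other NCAC libraries. The tissue was checked against 10 muscle fibre genes, whose summed level was 75540 to 99690 TPM in CAC and 68450 to 85850 TPM in NCAC. In whole muscle, fewer cells of a type and less RNA per cell cannot be told apart.

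**Figure D1:**
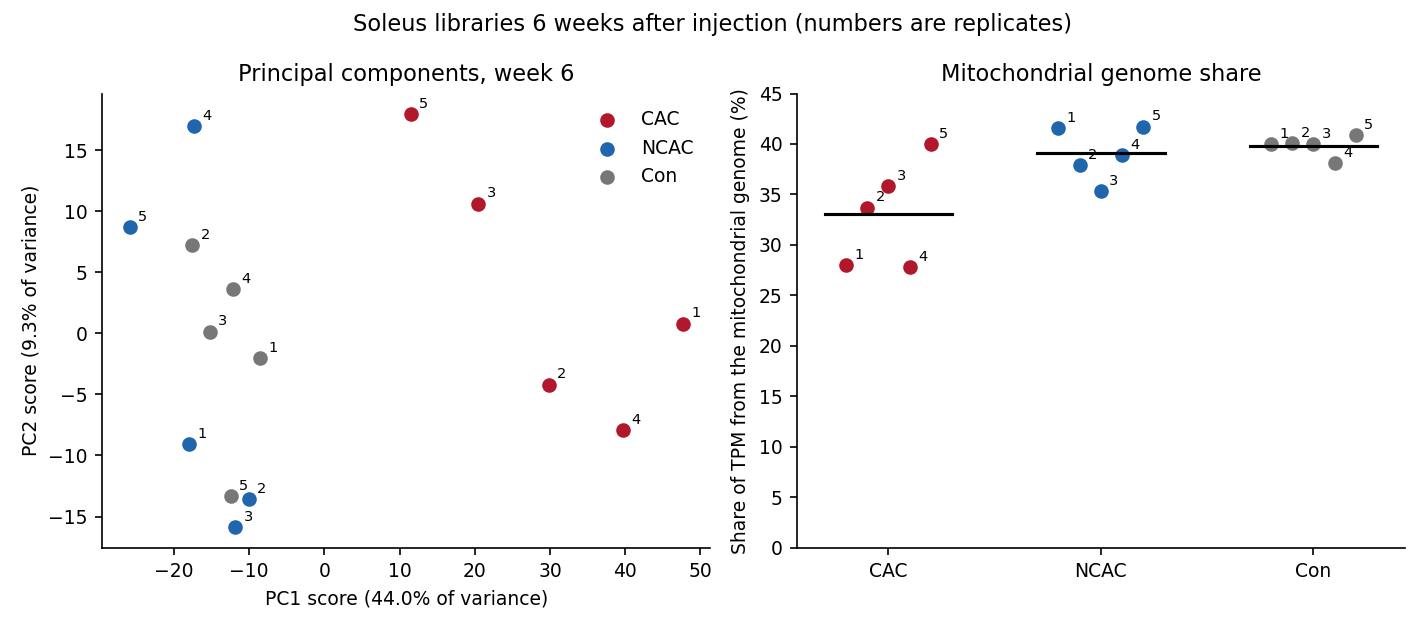
The left panel plots the scores of the 15 libraries of week 6 on the first and second principal components (44.0% and 9.3% of the variance), and the right panel the share of TPM from the mitochondrial genome in percent, with lines at group means; numbers are replicates. All CAC libraries lie right of the NCAC and Con libraries, with replicate 5 nearest to them, and CAC replicates 1 and 4 have the lowest mitochondrial shares.

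Members of 39 gene lists are plotted by list. The lists with the highest medians were acute phase secreted proteins (1.59 on the log2 scale), glucocorticoid receptor and targets (1.10) and complement (1.03). The lowest were fast fibre genes (-0.43), transcripts of the mitochondrial genome (-0.31) and collagens and matrix (-0.29). These are descriptions of lists whose members overlap in part, beside a median of 0.16 over all genes.

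**Figure D2:**
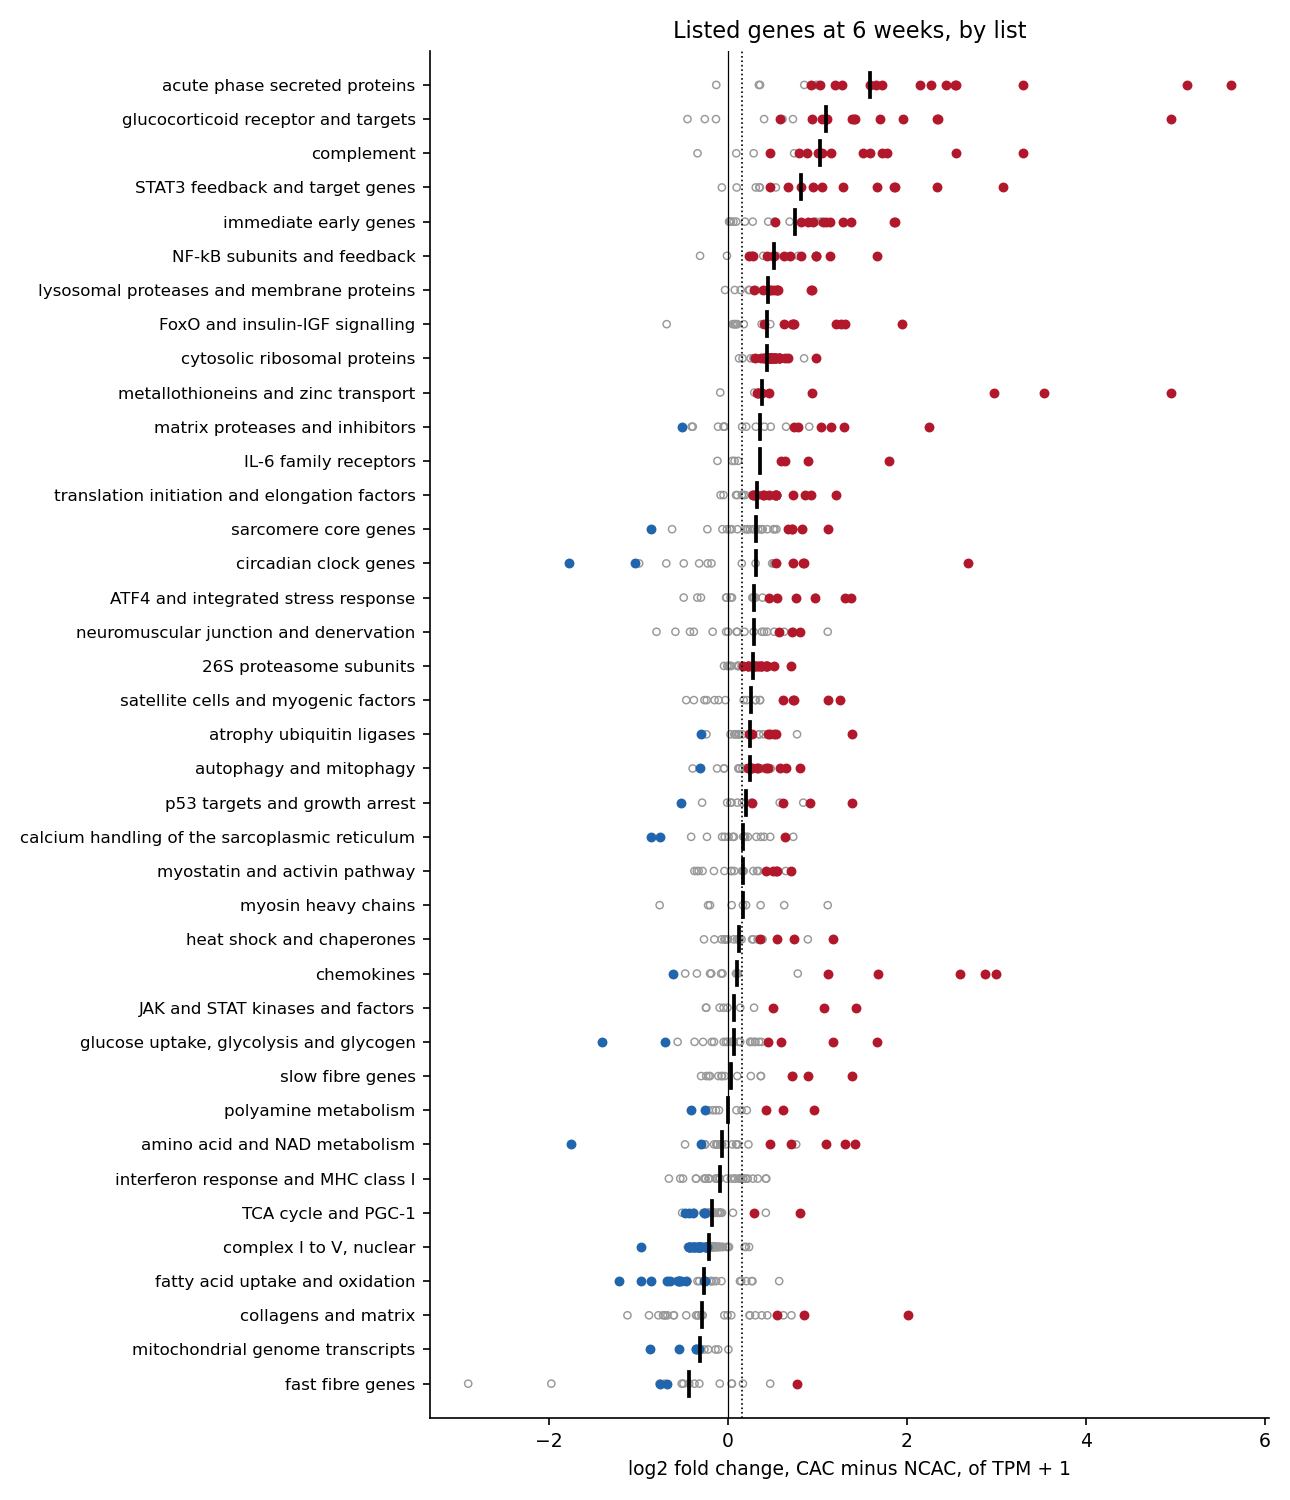
Each row is a gene list and each point a tested member, placed by its log2 fold change of TPM + 1 (CAC minus NCAC); red and blue points passed the test as higher and lower, open points did not, black bars are list medians and the dotted line is the median of all genes at 0.16. Points of the acute phase, metallothionein and glucocorticoid lists reach farthest right, and Mt2 is the farthest point of both of the latter lists. Respiratory chain, fat oxidation and mitochondrial genome transcripts lie mostly left of the dotted line.

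Among the genes of IL-6 family signalling, the receptor gene Osmr, the transcription factor gene Stat3 and its feedback target Socs3 were higher. Osmr, the receptor for oncostatin M that pairs with gp130, had 14.2, 12.5, 10.1, 12.4 and 9.26 TPM in the CAC libraries, against 2.67, 2.86, 2.28, 2.48 and 2.68 TPM in the NCAC libraries. Stat3 had 64.3, 57.7, 60.4, 59.2 and 47.4 TPM in CAC, against 20.3, 21.9, 27.4, 20.7 and 14.9 TPM in NCAC. Socs3, the inhibitor that STAT3 induces against its own receptors, had 41.3, 23.2, 17.8, 32.4 and 30.3 TPM in CAC, against 3.08, 3.86, 2.07, 1.63 and 1.91 TPM in NCAC. The groups were apart for all 3 genes, and CAC replicate 1 was highest for each. Stat3 had the smallest p of these (2.70-fold, log2 1.43 ± 0.13 SE, adjusted p = 2.8e-11). Osmr rose 3.50-fold (log2 1.81 ± 0.19, adjusted p = 9.1e-10) and Socs3 8.46-fold (log2 3.08 ± 0.34, adjusted p = 3.2e-09). The same genes averaged 2.6, 20.9 and 2.84 TPM in Con.

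Of 8 IL-6 family receptors, 4 rose and none fell. Il6st, which encodes gp130, averaged 77.9 ± 11 TPM in CAC and 51.3 ± 8.45 TPM in NCAC (SD, n = 5 each; adjusted p = 0.00014), and the groups overlapped. Il6ra and Lepr, the receptors for IL-6 and leptin, passed at 0.028 and 0.027, but not after rescaling (0.082 and 0.066). Neither passed without CAC replicate 1, 2 or 4 or NCAC replicate 4, where Il6ra was at 0.11, 0.052, 0.065 and 0.064 and Lepr at 0.072, 0.074, 0.057 and 0.069. Leaving out NCAC replicate 2 or 5 ended the call of Il6ra too (0.053 and 0.057), and leaving out NCAC replicate 3 that of Lepr (0.060). The list had 2 risers after rescaling, and also without CAC replicate 1, 2 or 4 or NCAC replicate 4. Of 10 JAK and STAT genes, Stat3, Jak3 and Stat2 rose (2 rose and 1 fell after rescaling). The median log2 of this list was 0.07, and 5 members had a positive value. Its called share was near the 24.6% of all genes that rose, and the count is no result about the list. Jak3, the kinase of the common gamma chain receptors, averaged 17.4 ± 7.37 TPM in CAC and 7.73 ± 3.55 TPM in NCAC, with replicate 4 the highest in both groups, at 30.4 and 14 TPM. Stat2, a partner in interferon signalling, passed at 0.015, but neither after rescaling (0.10) nor without CAC replicate 4 (0.051). Stat6 stood at 13.4 ± 1.13 TPM in CAC and 10.9 ± 2.12 TPM in NCAC and did not pass (adjusted p = 0.11), but did without week 8 (0.017) or NCAC replicate 2 (0.045).

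Of 17 STAT3 feedback and target genes, 11 rose and none fell (median log2 0.81), and 10 did so after rescaling. Junb, a partner in the AP-1 factor, averaged 44.0 ± 13.1 TPM in CAC and 11.2 ± 3.29 TPM in NCAC (3.67-fold, adjusted p = 1.8e-05). Bcl3, a nuclear partner of NF-kB, averaged 6.42 ± 1.44 TPM in CAC and 1.32 ± 0.275 TPM in NCAC (adjusted p = 4.9e-08). Cebpd, a factor that switches on acute phase genes in liver, had 72.5, 32.6, 20.8, 43.5 and 40.2 TPM in CAC, against 13.1, 7.20, 5.02, 9.86 and 2.97 TPM in NCAC, and rose 5.05-fold (adjusted p = 0.0018). Mcl1, a survival factor of the BCL-2 family, rose 1.60-fold (adjusted p = 0.0001). No CAC library overlapped with NCAC for these 4 genes.

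The start of Socs3 is shown because that gene is the STAT3 feedback target with the largest rise. The motif searched was TTCNNNGAA, the palindrome that STAT factors bind, which reads the same on both strands. Sequences are RefSeq promoters of GRCm38.p6, from 250 bases before to 50 bases after the annotated start, 5′ to 3′ on the gene's strand. Of 32841 such promoters, 8.3% hold the motif. Among the 14 STAT3 targets with a promoter in the table, 3 held it (Bcl6, Cish and Socs3), of which Socs3 rose. The Socs3 window is chr11:117969317-117969616 on the minus strand, with its 1 match in capitals. A match is a run of letters, not a shown binding site.
Socs3: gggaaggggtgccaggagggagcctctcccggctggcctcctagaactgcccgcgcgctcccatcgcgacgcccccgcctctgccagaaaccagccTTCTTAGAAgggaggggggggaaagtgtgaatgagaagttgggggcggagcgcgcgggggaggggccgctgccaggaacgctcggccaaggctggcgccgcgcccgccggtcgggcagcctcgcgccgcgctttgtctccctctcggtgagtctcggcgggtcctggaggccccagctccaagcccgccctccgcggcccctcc

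**Figure D3:**
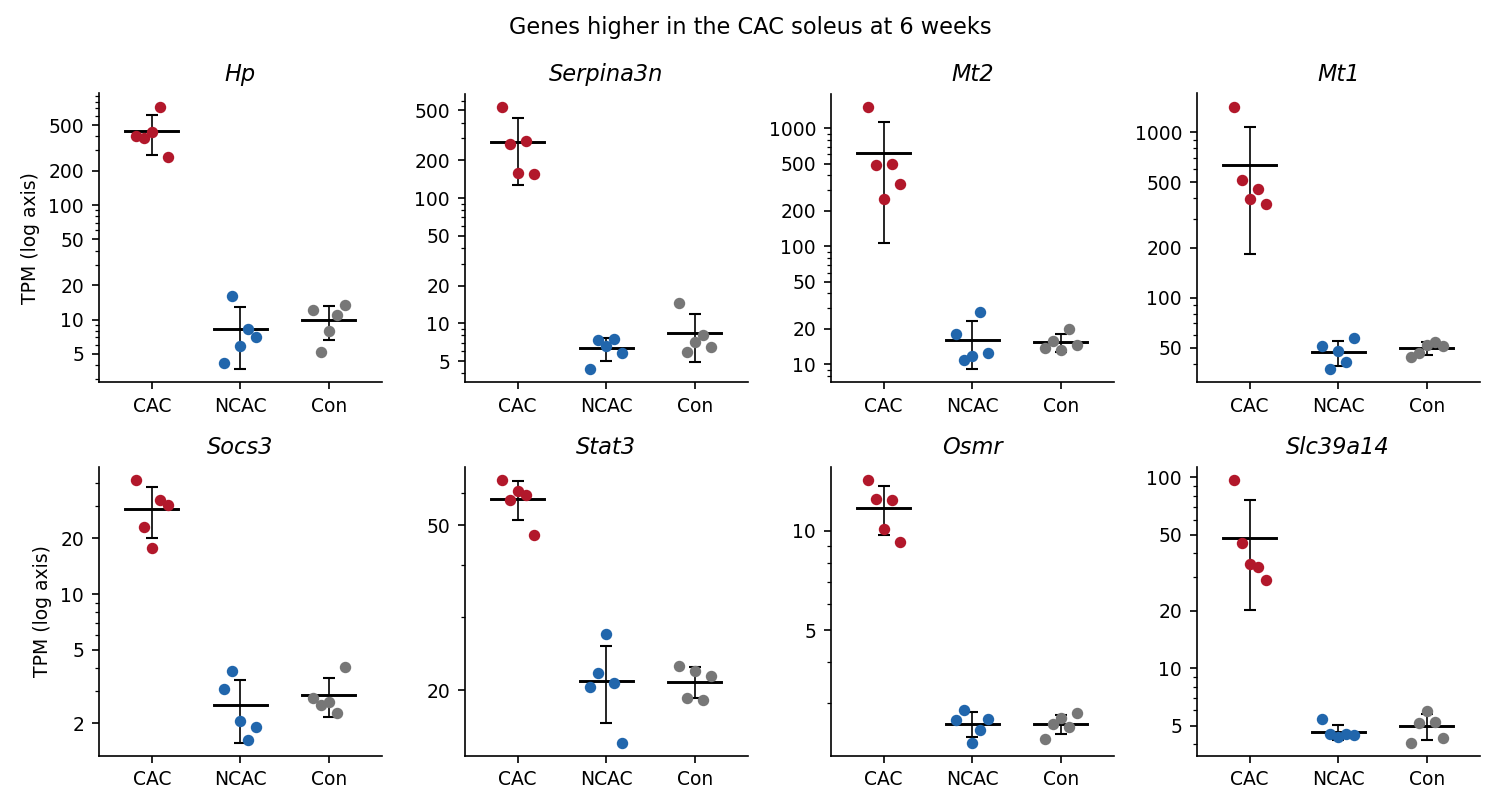
Points are the TPM of single libraries on a log axis for 8 genes in CAC, NCAC and Con at 6 weeks (5 libraries each), with the group mean as a bar and the SD as whiskers. All CAC libraries lie above all others for each gene, and CAC replicate 1, the leftmost point, stands far above the other CAC libraries for Mt1, Mt2 and Slc39a14.

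Secreted acute phase proteins, which the liver is best known for making, gave the largest rises. Hp (haptoglobin, which binds free haemoglobin; chr8:109575128-109579172, minus strand) had 399, 385, 436, 724 and 264 TPM in CAC, against 4.18, 16.0, 5.84, 8.26 and 7.08 TPM in NCAC. Serpina3n, a secreted inhibitor of serine proteases (chr12:104406729-104414329, plus strand), had 536, 269, 159.7, 287 and 156 TPM in CAC, against 4.32, 7.42, 6.59, 7.57 and 5.77 TPM in NCAC. CAC replicate 4 was highest for Hp and CAC replicate 1 for Serpina3n, and the lowest CAC value of each was over the highest NCAC value. Hp rose 49.2-fold (log2 5.62 ± 0.69, adjusted p = 4.3e-08) and Serpina3n 35.1-fold (log2 5.13 ± 0.58, adjusted p = 5.3e-09). In Con they averaged 9.86 and 8.40 TPM.

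Of 27 acute phase genes, 21 were tested and 15 rose on both scales, with none lower. Serpina3m, from the same gene cluster, averaged 6.21 ± 4.16 TPM in CAC and 0.105 ± 0.0445 TPM in NCAC (adjusted p = 5.7e-06). The Serpina3 genes are near-identical copies, and how reads were shared among them is not given in the sources used here, so their separate levels are uncertain. Lcn2, lipocalin 2, which binds bacterial iron carriers, averaged 8.83 ± 5.81 TPM in CAC and 0.702 ± 0.709 TPM in NCAC (5.44-fold, adjusted p = 0.00016). NCAC replicate 1 held 1.97 TPM of Lcn2 and the next NCAC library 0.421 TPM. The 6 tested members that did not pass were Saa2, Saa3, Orm1, Orm2, Orm3 and Serpina3g, with log2 fold changes from -0.13 to 1.02. Hepatocyte markers were measured beside them. Alb, Apoa1 and Apoa2 reached at most 0.295, 0.120 and 0.202 TPM in a CAC library, and 1 of 7 tested hepatocyte genes passed. That gene was Cyp2e1, an oxidase of foreign compounds, which was at 54.7 to 228 TPM in CAC and 12.9 to 47.9 TPM in NCAC.

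Of 18 complement genes, 17 were tested and 13 rose (median log2 1.03), 12 of them after rescaling. C4b, a component of the classical pathway, had 64.4, 67.6, 53.5, 80.8 and 54.9 TPM in CAC, against 4.28, 9.66, 7.03, 4.91 and 3.43 TPM in NCAC (9.89-fold, log2 3.31 ± 0.40, adjusted p = 4.5e-08). The mouse genome holds a near-identical C4 gene, so the level is uncertain in the same way. C3, the central protein of the cascade, had 134, 107, 74.4, 131 and 116 TPM in CAC, against 16.8, 21.3, 10.1, 36.5 and 13.7 TPM in NCAC (5.87-fold, adjusted p = 1.6e-05). Cfb of the alternative pathway rose 3.30-fold (adjusted p = 5e-05). Serping1, the inhibitor of the initiating C1 complex, rose as well, to 166 ± 7.54 TPM in CAC, against 54.7 ± 7.51 TPM in NCAC (SD, n = 5 each; adjusted p = 1.8e-05). Activating proteins and an inhibitor of the cascade were thus both higher, and no CAC library overlapped with NCAC for these 4 genes. C1qa, C1qb and C1qc are in this list and among the macrophage markers described below.

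Metallothioneins, small proteins that bind zinc and copper, and a zinc importer rose together. Mt1 (chr8:94179082-94180327, plus strand) had 1428, 518, 398, 453 and 367 TPM in CAC, against 51.2, 37.2, 47.9, 41.2 and 57.5 TPM in NCAC. Its neighbour Mt2 (chr8:94172664-94173568, plus strand) had 1526, 491, 254, 499 and 340 TPM in CAC, against 18, 11, 11.7, 27.8 and 12.5 TPM in NCAC. CAC replicate 1 was far above the other CAC libraries for both, and all CAC libraries were above all NCAC libraries. Mt2 rose 31.1-fold (log2 4.96 ± 0.68, adjusted p = 7.2e-07) and Mt1 11.6-fold (log2 3.53 ± 0.52, adjusted p = 2.4e-06). The pair is close in sequence, so the split of reads between them is uncertain. Slc39a14, which carries zinc into cells, had 96.7, 45.4, 35, 34 and 29.1 TPM in CAC, against 5.38, 4.50, 4.35, 4.51 and 4.44 TPM in NCAC (7.89-fold, adjusted p = 1.5e-06). Without CAC replicate 1 the log2 fold changes of Mt1, Mt2 and Slc39a14 were 3.18, 4.56 and 2.69, and all 3 passed. Slc30a2, which moves zinc into vesicles, averaged 6.83 ± 2.70 TPM in CAC, 3.00 ± 0.956 TPM in NCAC and 5.66 ± 1.18 TPM in Con. Of 12 tested genes of this list 9 rose, but 4 did so after rescaling, 5 with the compared groups fitted alone, 4 without CAC replicate 1 or NCAC replicate 5 and 5 without CAC replicate 4.

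The starts of both metallothionein genes are shown because they lie side by side and moved together. The letters searched were TGCGCNC and TGCACNC on both strands, the core that the zinc-sensing factor MTF-1 binds, and 25.7% of all promoters hold at least 1 match. The Mt1 window is chr8:94178839-94179138 and holds 3 matches, and the Mt2 window is chr8:94172368-94172667 and holds 4. In the list, 9 of 13 genes with a promoter held a match, Mt3 among them.
Mt1: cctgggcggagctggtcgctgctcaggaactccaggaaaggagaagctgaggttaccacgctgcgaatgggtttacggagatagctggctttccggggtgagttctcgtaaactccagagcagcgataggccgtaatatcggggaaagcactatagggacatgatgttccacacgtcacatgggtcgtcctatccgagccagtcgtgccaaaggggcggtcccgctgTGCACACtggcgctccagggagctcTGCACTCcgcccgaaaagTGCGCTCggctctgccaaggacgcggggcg
Mt2: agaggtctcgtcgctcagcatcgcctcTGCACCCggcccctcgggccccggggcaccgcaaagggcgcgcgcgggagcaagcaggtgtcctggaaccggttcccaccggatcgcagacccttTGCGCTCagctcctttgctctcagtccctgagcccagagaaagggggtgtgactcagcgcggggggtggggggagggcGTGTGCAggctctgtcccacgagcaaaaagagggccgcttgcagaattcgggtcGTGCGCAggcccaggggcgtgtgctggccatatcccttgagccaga

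Targets of the glucocorticoid receptor rose, while the gene of the receptor did not. Fkbp5, a chaperone partner that the receptor induces, had 164, 52.7, 61.9, 92.2 and 55.0 TPM in CAC, against 26, 4.87, 11.8, 15.5 and 24.5 TPM in NCAC, with no overlap (5.08-fold, adjusted p = 0.0007). Hsd11b1, the enzyme that regenerates active glucocorticoid inside cells, averaged 9.66 ± 2.20 TPM in CAC and 2.95 ± 0.498 TPM in NCAC (adjusted p = 0.00013). Errfi1, a feedback inhibitor of growth factor receptors, rose 3.88-fold (adjusted p = 0.00068). Of 19 tested genes 13 rose and none fell (median log2 1.10). After rescaling 8 rose and 1 fell, and 8 rose without CAC replicate 1 or without NCAC replicate 5. Nr3c1, which encodes the receptor, had a log2 fold change of -0.13 and did not pass, except after rescaling, where it was the 1 faller (0.030). The fasting targets Pdk4 and Angptl4, named for their direction, had -0.26 and -0.45 and did not pass (0.67 and 0.51). Cebpd and Mt2, described above, belong to this list too.

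A palindrome of the glucocorticoid receptor, searched on both strands as GNACA, any 3 bases and TGTNC, was held by 0.475% of all promoters. Within the windows it matched Serpina3n, Mt1 and Trim63 among the genes named here. Of the 16 listed glucocorticoid genes with a promoter, Sgk1 alone held it. The Serpina3n window, chr12:104406458-104406757 on the plus strand, is shown with its 1 match in capitals because this gene had the second largest rise. These motifs were chosen with the results known.
Serpina3n: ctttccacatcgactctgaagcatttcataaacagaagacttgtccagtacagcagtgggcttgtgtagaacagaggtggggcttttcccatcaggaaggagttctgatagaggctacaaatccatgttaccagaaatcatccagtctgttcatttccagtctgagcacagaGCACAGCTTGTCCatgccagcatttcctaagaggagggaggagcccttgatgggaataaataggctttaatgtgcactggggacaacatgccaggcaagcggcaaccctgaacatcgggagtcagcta

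Output genes of the circadian clock moved in opposite directions. Nfil3, a repressor of genes with D-box elements, had 99.7, 81.5, 136, 37.4 and 65.3 TPM in CAC, against 15.6, 12.7, 9.45, 11.3 and 7.90 TPM in NCAC. Dbp, an activator of the same elements, had 51.8, 61.5, 8.29, 101 and 63.1 TPM in CAC, against 149, 186, 174, 119 and 160 TPM in NCAC. Neither pair of groups overlapped, and CAC replicate 3 was highest for Nfil3 and lowest for Dbp. Nfil3 rose 6.45-fold (adjusted p = 7.2e-05), and Dbp fell by 1.78 in log2 units (SE 0.42, adjusted p = 0.0017). Of 19 clock genes 5 rose and 2 fell (4 and 3 after rescaling). The share that rose was near the 24.6% over all genes, and that count is no result about the list. Over all genes 3.19% fell, and after rescaling 9.3% rose and 10% fell. The other called fall was that of Bhlhe41, a repressor of the clock loop, at 5.17 ± 1.33 TPM in CAC and 11.5 ± 1.37 TPM in NCAC. Cry2, another repressor of the loop, rose 1.81-fold (adjusted p = 0.0015), with overlapping groups. Nr1d1 had 37.9, 37.5, 16.9, 44.7 and 38.6 TPM in CAC, all below the 52.0 to 83.6 TPM of NCAC, and did not pass (log2 -0.99, adjusted p = 0.16). In the fit of the compared groups by themselves it passed at 0.0088. The time of day of collection is not given in the sources used here, and its part in these values was not tested.

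Genes of insulin and FoxO signalling rose on both the receptor and the inhibitor side. Irs2, an adaptor of the insulin receptor, had 65.2, 151, 57.2, 50.5 and 60.1 TPM in CAC, against 19.2, 21.4, 48.5, 14.5 and 5.14 TPM in NCAC (3.86-fold, adjusted p = 0.0029), with CAC replicate 2 far above the others. Eif4ebp1, which holds back cap-dependent translation, averaged 216 ± 75.2 TPM in CAC and 88.2 ± 6.94 TPM in NCAC (adjusted p = 0.00077). Igf1r and Igfbp3, a receptor and a binding protein for insulin-like growth factors, rose 1.55-fold and 2.48-fold (adjusted p = 0.0004 and 0.0033). Foxo1, which drives atrophy genes, rose 1.68-fold (adjusted p = 0.016), but passed neither after rescaling (0.069) nor without CAC replicate 1 (0.093). Of 18 genes 9 rose and none fell (6 and 1 after rescaling).

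The ubiquitin ligases best known from muscle atrophy did not pass. Fbxo32 (atrogin-1) had 219, 269.8, 81.2, 191 and 139 TPM in CAC, against 199, 195, 178, 87.8 and 150.4 TPM in NCAC (log2 0.10 ± 0.33, adjusted p = 0.85). The groups overlapped over almost their whole range, and the log2 fold change was -0.10 after rescaling, -0.0027 and -0.08 without CAC replicate 1 or 2, and -0.11 without NCAC replicate 4. Trim63 (MuRF1) had 309, 305, 149.9, 176 and 183 TPM in CAC, against 132, 137, 168, 86.1 and 116 TPM in NCAC (log2 0.78 ± 0.37, adjusted p = 0.11). CAC replicates 1 and 2 lay above all NCAC libraries, and NCAC replicate 3 lay above the lowest CAC library. Trim63 passed with the compared groups fitted alone (0.027), without week 8 (0.0027) and with sample weights (0.01). Fbxo31, another F-box adaptor, rose 2.61-fold, to 142 ± 66.9 TPM in CAC, against 49.7 ± 10.7 TPM in NCAC (adjusted p = 0.00087). Of 24 listed genes 7 rose and 1 fell, and 2 rose after rescaling, 3 without CAC replicate 1. The shares that rose were near the 24.6% of all genes, and 9.3% after rescaling. These counts are no result about the list. The faller was the conjugating enzyme Ube2b (log2 -0.30, adjusted p = 0.0051). Ubr2 and Ubr4, which read the ends of proteins, passed at 0.0063 and 0.0055 and not after rescaling (0.085 and 0.068).

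Proteasome, autophagy and lysosome genes rose by small amounts, which for proteasome and autophagy genes depended on the scale. Over all genes 24.6% rose, and after rescaling 9.3% rose and 10% fell. Of 32 genes of the 26S proteasome 22 rose and none fell, with a median log2 of 0.29. After rescaling 4 rose and 1 fell (median 0.09), and 11 rose with the compared groups fitted alone. Psmd4, its ubiquitin receptor, had 218, 189.6, 142, 215 and 132 TPM in CAC, against 87.9, 106, 123, 107 and 115 TPM in NCAC (1.63-fold, adjusted p = 9.3e-05). Psmc1 and Psmd8, subunits of its regulatory cap, rose 1.35-fold and 1.43-fold. Of 26 autophagy genes 12 rose and 1 fell. After rescaling 2 autophagy genes rose and 3 fell, shares near those over all genes. The rises numbered 5 in the compared groups alone, 4 without CAC replicate 1 and 7 without CAC replicate 4 or NCAC replicate 5. Map1lc3a, which coats the autophagosome, averaged 309 ± 104 TPM in CAC and 171 ± 21.8 TPM in NCAC (adjusted p = 0.00033), with CAC replicate 1 at 492 TPM and the next at 284 TPM. Atg7, the enzyme that loads it, rose 1.37-fold (adjusted p = 0.0012). Bnip3, a mitophagy receptor, stood at 825 ± 198 TPM in CAC and 639 ± 75.8 TPM in NCAC and did not pass (0.22). Of 18 lysosomal genes 11 rose, 8 of them after rescaling. Ctsd, cathepsin D, averaged 564 ± 80.5 TPM in CAC and 380.1 ± 35.8 TPM in NCAC (adjusted p = 7.3e-06), and the membrane protein Lamp1 averaged 607 ± 52.5 TPM in CAC and 459.7 ± 29.7 TPM in NCAC (adjusted p = 1.8e-05).

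Genes of NF-kB signalling and immediate early genes were higher, and those of the interferon response were not called. Of 19 NF-kB genes 12 rose and none fell, 6 of them after rescaling. Tnfrsf1a and Tnfrsf1b, the receptors for tumour necrosis factor, averaged 67.0 ± 10.2 and 7.23 ± 1.4 TPM in CAC, against 33.1 ± 3.85 and 2.68 ± 0.315 TPM in NCAC (adjusted p = 2.4e-06 and 2.4e-05). Nfkbiz, a nuclear cofactor, rose 1.98-fold (adjusted p = 3.3e-05). Of 24 immediate early genes 11 rose (median log2 0.75), 7 after rescaling or without NCAC replicate 5. Myc and Fosl2, growth and AP-1 factors, rose 2.44-fold and 2.21-fold (adjusted p = 0.00088 and 0.00064). Zfp36, which marks cytokine messages for decay, rose 2.09-fold with overlapping groups. Of 31 interferon and MHC class I genes none passed limma (median log2 -0.09), and 1 in each direction had an unadjusted p under 0.05. After rescaling 1 fell, and without week 8, 3 rose and 1 fell. In the compared groups alone 2 fell, and 8 did so there after rescaling. Gbp3, a guanylate-binding protein that interferon induces, was at 2.57 ± 0.726 TPM in CAC and 4.67 ± 1.34 TPM in NCAC (adjusted p = 0.084), and passed after rescaling (0.043), in the compared groups alone (0.024) and without week 8 (0.020).

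Chemokines gave some of the larger rises. Cxcl13, which attracts B cells, had 22.0, 6.52, 3.36, 7.09 and 4.2 TPM in CAC, against 0.088, 0, 0.0928, 0.0427 and 0.209 TPM in NCAC (7.33-fold, adjusted p = 0.0016), with CAC replicate 1 highest. Ccl8, which attracts monocytes, had 7.27, 28.2, 11.9, 22.4 and 22.8 TPM in CAC, against 0.594, 2.14, 0.418, 5.29 and 0.188 TPM in NCAC (8.00-fold, adjusted p = 0.00015), and here CAC replicate 1 was the lowest CAC library. Cxcl14 had 160, 107, 141, 138 and 135 TPM in CAC, against 21.0, 23.0, 15.2, 28.0 and 22.2 TPM in NCAC (6.05-fold, adjusted p = 2.8e-07). All 3 were apart between the groups. Of 16 tested chemokines 5 rose and 1 fell (5 and 2 after rescaling), and none fell without the filter, with the replicate block or without CAC replicate 1, 2 or 4 or NCAC replicate 1, 2, 3 or 4. Among the other largest rises was Apod, a lipid carrier of the lipocalin family, with 268, 205, 177, 208 and 185 TPM in CAC, against 18.6, 21.7, 19.2, 24.0 and 19.9 TPM in NCAC (9.60-fold, adjusted p = 9.5e-09). Tmem252, a membrane protein, averaged 13.5 ± 5.87 TPM in CAC and 0.533 ± 0.131 TPM in NCAC (8.83-fold, adjusted p = 1.9e-09). Krt80, a keratin, rose 6.04-fold and Wfdc21 6.00-fold (adjusted p = 2e-05 and 0.00048).

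Amino acid, stress and growth arrest genes were called at shares near the 27.8% called in either direction over all genes, and the counts are no result about these groups. Of 19 tested genes of the ATF4 pathway 6 rose and none fell, 3 rose and 3 fell after rescaling, and 2 fell without week 8. Asns, asparagine synthetase, had 6.73, 6.08, 6.38, 6.85 and 5.73 TPM in CAC, against 1.30, 2.10, 2.18, 2.10 and 1.55 TPM in NCAC (2.6-fold, adjusted p = 0.0031). Slc3a2, the heavy chain of amino acid transporters, averaged 39.6 ± 7.74 TPM in CAC and 15.2 ± 0.817 TPM in NCAC (adjusted p = 2.3e-07). Atf4 itself rose 1.38-fold (adjusted p = 0.0053), which did not hold after rescaling (0.15). Glul, glutamine synthetase, averaged 410.0 ± 114 TPM in CAC and 152 ± 36.8 TPM in NCAC (2.69-fold, adjusted p = 0.0029), and the glutamine importer Slc38a2 rose 2.48-fold (adjusted p = 0.00024). Nmrk2, a kinase of NAD synthesis in muscle, had 9.23, 14.3, 33.1, 10 and 23.1 TPM in CAC, against 58.8, 42.7, 50.1, 161 and 27.7 TPM in NCAC, and the groups overlapped. Its fall of 1.75 on the log2 scale passed at 0.029, but not without CAC replicate 1, 2 or 4 or NCAC replicate 4 (0.094, 0.052, 0.079 and 0.11). Of 27 genes of amino acid and NAD metabolism 5 rose and 2 fell (3 and 8 after rescaling), and 3 rose without CAC replicate 1 or NCAC replicate 5. The falls numbered 1 without CAC replicate 1 or 4 or NCAC replicate 4, and 5 without week 8. Cdkn1a, the cell cycle inhibitor p21, averaged 47.7 ± 20.1 TPM in CAC and 17.1 ± 6.80 TPM in NCAC (2.62-fold, adjusted p = 0.0043), and the group ranges touched through NCAC replicate 4 at 29.2 TPM. Of 15 p53 targets 4 rose and 1 fell, and 2 rose after rescaling, in the compared groups alone or without CAC replicate 1, 2 or 4 or NCAC replicate 5. Ccng1, cyclin G1, was the faller, at 222 ± 24.1 TPM in CAC and 319.6 ± 35.8 TPM in NCAC (adjusted p = 0.0031). Eda2r, a receptor of the tumour necrosis factor family, passed at 0.033, but not in the compared groups alone (0.16) or after rescaling (0.15). Leaving out CAC replicate 1, 2 or 4 (0.15, 0.088 and 0.093) or NCAC replicate 1, 2 or 5 (0.067, 0.060 and 0.22) ended the call too. Gadd45a, a stress-induced growth arrest gene, stood at 17.3 ± 6.96 TPM in CAC and 15.1 ± 5.31 TPM in NCAC (adjusted p = 0.83), with a log2 fold change of 0.11 that was -0.08 after rescaling and -0.02 without CAC replicate 4.

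Of 12 tested genes of polyamine metabolism 3 rose and 2 fell (2 and 3 after rescaling). The share that rose was near the 24.6% over all genes, and that count is no result about the list. Over all genes 3.19% fell, and after rescaling 9.3% rose and 10% fell. Sat1, which starts the breakdown of polyamines, averaged 46.9 ± 15.6 TPM in CAC and 22.7 ± 3.77 TPM in NCAC (1.96-fold, adjusted p = 0.0015). Paox, an oxidase that acts after it, rose 1.54-fold (adjusted p = 0.0047). Oaz2, an antizyme that blocks polyamine synthesis, fell to 131 ± 7.56 TPM in CAC, against 175 ± 18 TPM in NCAC (adjusted p = 0.0021). The falls numbered 1 in the compared groups alone and without CAC replicate 1, 2 or 5 or NCAC replicate 2 or 3. Odc1, the synthetic enzyme that antizymes block, passed at 0.024, but not after rescaling (0.21), in the compared groups alone (0.13) or without CAC replicate 1, 2 or 3 (0.070, 0.074 and 0.051) or NCAC replicate 5 (0.21).

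Genes of the translation machinery were higher by small amounts that depended on the scale. All 77 cytosolic ribosomal protein genes had a positive log2 fold change (0.13 to 0.98, median 0.44), and 36 passed. Over all genes 24.6% rose, and 9.3% did so after rescaling. After rescaling 4 of the 77 passed (median 0.24), a share below that of all genes. The count of 36 was also moved by single libraries, to 11 without CAC replicate 1, 10 without CAC replicate 4, 21 without NCAC replicate 1 or 5 and 23 without NCAC replicate 2. It was 69 without week 8 and 70 with sample weights. Rpl3 had 127, 82.8, 81.4, 134 and 69.8 TPM in CAC, against 44.7, 46.7, 48.4, 60.9 and 40.8 TPM in NCAC (1.98-fold, adjusted p = 0.00069). Rpl4 had 1565, 1389.6, 1199, 1757 and 1135 TPM in CAC, against 885, 876, 1095, 1003 and 933 TPM in NCAC (1.46-fold, adjusted p = 0.0014). For both, CAC replicates 1 and 4 were the highest and replicate 5 the lowest of the group, and no CAC library reached down to NCAC. Many ribosomal protein genes have processed copies in the genome, so counts of single genes are uncertain. Of 25 translation factors 15 rose and none fell (7 and 2 after rescaling). Eif1a, which helps ribosomes scan for the start codon, rose 1.91-fold, and Eif3b and Eif3c, subunits of the scaffold eIF3, rose 1.45-fold and 1.46-fold (adjusted p = 0.00026, 8.1e-05 and 5.8e-05).

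Respiratory chain and fat oxidation genes were lower. Of 77 nuclear genes of complexes I to V none rose and 23 fell (median log2 -0.21), where 3.19% of all genes fell. After rescaling 55 fell (median -0.41). The 23 became 8 without CAC replicate 1, 12 without CAC replicate 4, 15 without NCAC replicate 2, 13 without NCAC replicate 5, 15 without the filter on low values and 54 without week 8. Cox7a1, the muscle form of a cytochrome oxidase subunit, had 228, 521, 527, 295 and 602 TPM in CAC, against 889.8, 802, 658, 735 and 931 TPM in NCAC, and fell by 0.97 in log2 units (SE 0.20, adjusted p = 0.00032). The lowest CAC libraries were replicates 1 and 4, and the groups did not overlap. Atp5j and Atp5g3 of the ATP synthase fell by 0.43 and 0.41, and Ndufb2 of complex I by 0.43 (adjusted p = 0.0003, 0.0021 and 0.0022). Of 13 transcripts of the mitochondrial genome 5 fell. Their number was 2 without CAC replicate 1 or 4, 8 without CAC replicate 5, 9 after rescaling, 10 without week 8 or with sample weights and 2 without the filter or in the compared groups alone. mt-Nd3 averaged 6317 ± 1209 TPM in CAC and 9115 ± 1088 TPM in NCAC (adjusted p = 0.0015). mt-Nd6 fell by 0.86 (adjusted p = 0.0092), with means of 158 TPM in CAC, 278 TPM in NCAC and 194 TPM in Con. The transcript mt-Cytb passed at 0.015, but not in the compared groups alone (0.059), without the filter (0.37) or without CAC replicate 1 or 4 (0.068 and 0.058).

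Of 33 genes of fat uptake and oxidation 12 fell and none rose, and 16 fell after rescaling, 19 without week 8. Fabp3, the carrier of fatty acids in muscle, had 2441, 3285, 3438, 2109 and 3144 TPM in CAC, against 5569, 5609, 5953, 5460.2 and 5101 TPM in NCAC. It fell by 0.96 in log2 units (SE 0.21, adjusted p = 0.00058), and the groups lay wide apart. Hadhb, of the trifunctional enzyme of beta-oxidation, had 167, 260.2, 213, 169 and 221 TPM in CAC, against 393, 399.6, 386, 363 and 305 TPM in NCAC (log2 -0.85 ± 0.19, adjusted p = 0.0011). Acads and Hadh, which act on short chains, fell by 0.52 and 0.47 (adjusted p = 0.0017 and 0.0032). CAC replicates 1 and 4 were the lowest for Fabp3 and Hadhb, and were also the libraries with the lowest mitochondrial genome share. The part of that share in these falls was not tested. Without CAC replicate 1, 9 of the 33 genes fell.

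Of 28 genes of the citric acid cycle and PGC-1 2 rose and 5 fell, and none rose and 10 fell after rescaling. The falls numbered 1 without CAC replicate 1, 2 without CAC replicate 4 or NCAC replicate 1 or 5, 3 without CAC replicate 2 or NCAC replicate 2 or 3, 3 also without the filter or in the compared groups alone, 9 with sample weights and 13 without week 8. The rises numbered 1 without CAC replicate 1 or 4 or NCAC replicate 4 or 5. Tfam, which packages mitochondrial DNA, fell by 0.26 (adjusted p = 0.0073), but did not pass in the compared groups alone (0.064). Sucla2, a subunit of succinyl-CoA ligase, averaged 167 ± 28.4 TPM in CAC and 224 ± 19.5 TPM in NCAC (adjusted p = 0.0096, and 0.058 without CAC replicate 1). Ppargc1a, the coactivator PGC-1alpha, stood at 13.7 ± 5.46 TPM in CAC and 9.57 ± 2.63 TPM in NCAC and did not pass (0.38). Of 28 genes of glucose use 4 rose and 2 fell (4 and 3 after rescaling), 10 rose and 5 fell without week 8, and 7 rose with sample weights. Their called share was below the 27.8% in either direction over all genes, and the counts are no result about this group. The falls numbered 1 without CAC replicate 3 or 4 or NCAC replicate 1 or 4. Ppp1r3c, which targets a phosphatase to glycogen, rose 3.18-fold (adjusted p = 0.00069), and Slc2a1, the basal glucose transporter, 2.26-fold (adjusted p = 0.00066). Phkg1, the catalytic subunit of the kinase that starts glycogen breakdown, averaged 16.2 ± 3.97 TPM in CAC and 44.9 ± 12.5 TPM in NCAC and fell by 1.4 (adjusted p = 0.00053).

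**Figure D4:**
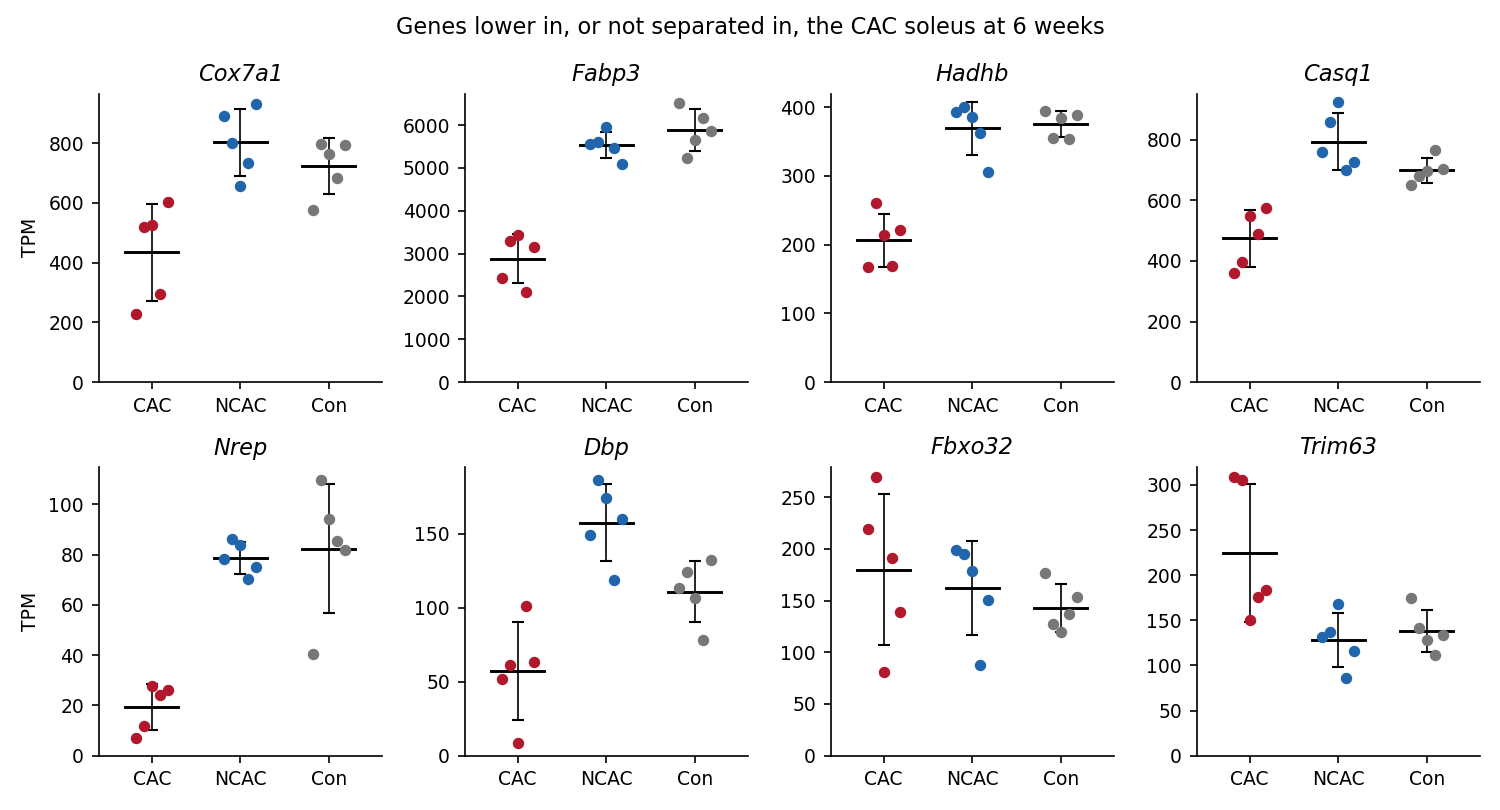
Points are the TPM of single libraries for 8 genes in CAC, NCAC and Con at 6 weeks (5 libraries each) on axes that start at 0, with group means as bars and SDs as whiskers. The first 6 genes are lower in all CAC libraries than in all NCAC libraries, whereas Fbxo32 and Trim63 overlap between the groups.

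No myosin heavy chain passed. Myh7, the slow form, had 8651, 5052, 4681, 9048 and 3933 TPM in CAC, against 3723, 4646, 6023, 4694 and 4146 TPM in NCAC (log2 0.37, adjusted p = 0.36). Myh2, the fast oxidative form, averaged 1796 ± 646 TPM in CAC and 1752 ± 621 TPM in NCAC (log2 0.04, adjusted p = 0.94), and its log2 fold change was below 0 after rescaling (-0.15), with sample weights (-0.15) and without CAC replicate 1 or 5 (-0.03 and -0.11) or NCAC replicate 3 (-0.24). CAC replicates 1 and 4 were the highest of all 10 libraries for Myh7, and the other 3 lay within the NCAC range. Of 9 heavy chain genes none passed on either scale or had an unadjusted p under 0.05. Myh8, the perinatal form, at 23.7 ± 5.91 TPM in CAC and 11.3 ± 5.04 TPM in NCAC, passed in the compared groups alone (0.034). Without CAC replicate 2, 1 heavy chain gene was higher, and in the compared groups after rescaling 1 was lower. Myh4 averaged 20.5 ± 5.17 TPM in CAC and 152 ± 299 TPM in NCAC, where replicate 3 held 687 TPM. Its log2 fold change was -0.76, and 0.31 without that library.

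Of 17 fast fibre genes 1 rose and 2 fell (median log2 -0.43), 0 and 4 after rescaling. Over all genes 24.6% rose and 3.19% fell, and 9.3% and 10% did so after rescaling. Casq1, which stores calcium in fast fibres, had 360, 397, 549, 489 and 574 TPM in CAC, against 758, 858, 924, 700 and 727 TPM in NCAC (log2 -0.76 ± 0.26, adjusted p = 0.025). It did not pass without CAC replicate 1 or 2 or NCAC replicate 3 (0.092, 0.059 and 0.051). Myl1, a fast light chain, fell by 0.68 (adjusted p = 0.034), but not without CAC replicate 1 or 4 (0.086 and 0.17) or NCAC replicate 1, 2 or 5 (0.070, 0.055 and 0.069). Mylk2, the kinase of the regulatory light chain, rose 1.71-fold (0.028), but not after rescaling (0.15), without CAC replicate 1, 2 or 4 (0.12, 0.060 and 0.086) or without NCAC replicate 4 (0.11). Without CAC replicate 1 none of the fast fibre genes fell, without CAC replicate 2 or 4 or NCAC replicate 1 or 5, 1 did, without week 8, 5 did, and with sample weights, 4 did. The 1 rise was lost without CAC replicate 1, 2 or 4 or NCAC replicate 4. Of 16 slow fibre genes 3 rose and none fell (2 and 1 after rescaling). That share was below the 24.6% of all genes that rose, and the count is no result about this group. Ankrd2, a stretch-responsive protein of slow fibres, had 4200.1, 2782, 2915, 3454 and 2701 TPM in CAC, against 1048, 974, 908, 2726 and 1021 TPM in NCAC (2.62-fold, adjusted p = 0.00064), and the overlap rested on NCAC replicate 4. Myoz2, a protein of the slow Z disc, averaged 1620.5 ± 281 TPM in CAC and 976 ± 109 TPM in NCAC (adjusted p = 0.00042). The third, Csrp3, a Z disc protein that responds to load, passed at 0.049 and was highest of all in NCAC replicate 4, at 1387 TPM. Its call was lost after rescaling (0.18), in the compared groups alone (0.13) and without CAC replicate 1, 3 or 4 (0.14, 0.065 and 0.13) or NCAC replicate 1, 2, 3 or 5 (0.11, 0.10, 0.12 and 0.14).

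Single genes of the sarcomere frame rose, and myoglobin fell. Sarcomere and calcium handling genes were called at shares below the 27.8% called in either direction over all genes. The counts are no result about these 2 groups. Des (desmin, the intermediate filament around Z discs, also made in smooth muscle) had 5548, 3142, 2683, 4325 and 2983 TPM in CAC, against 1133, 1680.0, 1846, 1875 and 1872 TPM in NCAC (2.18-fold, adjusted p = 5.8e-05). Pdlim5, another Z disc protein, rose 1.64-fold (adjusted p = 0.00041). Lmod3, which starts thin filaments, fell to 157 ± 28.4 TPM in CAC, against 282 ± 20.1 TPM in NCAC (log2 -0.86, adjusted p = 0.0051). Of 28 listed genes 5 rose and 1 fell (3 and 1 after rescaling), and 14 rose without week 8, 12 with sample weights and 8 without NCAC replicate 4. Acta1 and Ttn, skeletal actin and titin, did not pass (0.32 and 0.28), except Acta1 without week 8 (0.041). Mb, myoglobin, had 6053, 10159, 9011, 7744 and 11059.6 TPM in CAC, against 13944, 13102, 11768, 11933 and 13532 TPM in NCAC. Its fall of 0.57 passed at 0.027, and did not without CAC replicate 1 or 4 or NCAC replicate 1 or 5 (0.13, 0.07, 0.057 and 0.06). Of 20 tested calcium handling genes 1 rose and 2 fell, against 0 and 3 after rescaling, 4 and 3 in the compared groups alone, 8 and 3 without week 8 and 3 and 3 with sample weights. The falls numbered 1 without CAC replicate 1 or 2 or NCAC replicate 3, and 2 rose without CAC replicate 5 or NCAC replicate 3. Mrln, a peptide that brakes the calcium pump, fell to 8.84 ± 2.33 TPM in CAC, against 16.4 ± 0.906 TPM in NCAC (adjusted p = 0.0021). Ryr1, the release channel, rose 1.56-fold (0.020), but not after rescaling (0.14) or without CAC replicate 1 or 4 (0.076 and 0.058) or NCAC replicate 5 (0.070).

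Genes of the nerve contact, of muscle precursors, of the myostatin pathway and of heat shock were called at shares no higher than the 27.8% over all genes, and the counts are no result about these groups. Of 21 tested genes of the neuromuscular junction and denervation 3 rose and none fell, and 1 rose after rescaling or without CAC replicate 1 or NCAC replicate 5, 5 in the compared groups alone and 6 without week 8. Runx1, a factor that denervated muscle makes, averaged 1.70 ± 0.312 TPM in CAC and 0.641 ± 0.219 TPM in NCAC (adjusted p = 0.0019). Musk and Chrnb1, a kinase and a receptor subunit of the junction, passed at 0.025 and 0.027, but not after rescaling (0.10 and 0.20), without CAC replicate 1 (0.12 and 0.15) or without NCAC replicate 5 (0.097 and 0.13). Musk was also lost without CAC replicate 2 (0.055), and Chrnb1 without CAC replicate 4 (0.072) and in the compared groups alone (0.056). Of 18 tested precursor and myogenic genes 5 rose (4 after rescaling, 9 without week 8 and 8 with sample weights), Des among them. Sdc4, a surface proteoglycan of satellite cells, rose 2.39-fold (adjusted p = 0.00022), and Myf6, a myogenic factor of mature fibres, 1.65-fold (adjusted p = 0.0019). Mstn, myostatin, was near 1 TPM in both groups, at 0.848 ± 0.707 TPM in CAC and 0.778 ± 1.13 TPM in NCAC, and its log2 fold change of 0.16 was -0.03 without CAC replicate 1. Of 22 tested genes of its pathway 5 rose and none fell, and after rescaling 4 rose and 3 fell. Smad4, the shared signal carrier, rose 1.35-fold and the receptor Tgfbr1 1.45-fold (adjusted p = 0.0019 and 0.0041). Of 22 heat shock genes 4 rose and none fell. After rescaling none rose and 2 fell, without CAC replicate 1 none rose, and 2 rose without CAC replicate 3 or 4 or NCAC replicate 1 or 5 or in the compared groups alone.

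Of 28 collagen and matrix genes 3 rose and none fell (median log2 -0.29). This was below the 24.6% of all genes that rose, and the count is no result about the group. Rescaling gave 1 rise and 3 falls, the fit of the compared groups by themselves 6 and 4, sample weights 8 falls, and 1 rose without CAC replicate 1. Lox, the enzyme that cross-links collagen and elastin, had 28.2, 20.9, 16.8, 11.8 and 13.3 TPM in CAC, against 3.57, 4.40, 3.16, 7.19 and 1.29 TPM in NCAC (4.04-fold, adjusted p = 0.0017). Eln, elastin, rose 1.8-fold (adjusted p = 0.014), and neither after rescaling nor without CAC replicate 1 (0.057 in both). Of 20 matrix proteases and inhibitors 6 rose and 1 fell (4 and 1 after rescaling). The share that rose was not far from the 24.6% over all genes, and that count is no result about the list. Over all genes 9.3% rose after rescaling. The fall was lost without the filter and without any 1 library other than CAC replicate 3 and NCAC replicate 4. Mmp3, stromelysin 1, had 7.13, 9.49, 4.05, 7.54 and 2.93 TPM in CAC, against 0.394, 0.87, 0.267, 0.382 and 0.294 TPM in NCAC (4.76-fold, adjusted p = 0.00022). Mmp14 and Mmp2, a membrane-bound protease and its gelatinase partner, rose 2.46-fold and 2.07-fold (adjusted p = 0.0020 and 0.012), Mmp2 not without NCAC replicate 5 (0.058).

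Markers of other cell types moved with some of these groups, and their part in the results above was not tested. Of 13 tested macrophage genes 6 rose and none fell (5 rose after rescaling), with a summed level of 227 to 287 TPM in CAC and 65.8 to 209.7 TPM in NCAC. C1qb averaged 30.5 ± 2.42 TPM in CAC and 14.1 ± 5.57 TPM in NCAC (adjusted p = 0.0052), while Adgre1 and Cd68, general macrophage markers picked for their small change, had log2 fold changes of 0.21 each and did not pass. Without NCAC replicate 5, 2 macrophage genes rose, and C1qa and C1qc were then at 0.078 and 0.060. Of 14 neutrophil genes 6 were tested and 5 rose, with sums of 21.5 to 50.1 TPM in CAC and 8.08 to 13.0 TPM in NCAC. Lcn2, described above with the acute phase genes, is counted here too, at 8.83 TPM in CAC and 0.702 TPM in NCAC on average. S100a8 and Retnlg did not pass in 3 and 2 of the fits with 1 library left out. Granule genes Mpo and Elane reached at most 0.0328 and 0.367 TPM in a CAC library. Csf3r, the receptor for the granulocyte growth factor, averaged 1.54 ± 0.240 TPM in CAC and 0.508 ± 0.221 TPM in NCAC (adjusted p = 0.00048). The neutrophil rises numbered 3 after rescaling, without NCAC replicate 4, with a pseudocount of 0.1, without a filter, with the replicate block and with sample weights, and 2 without CAC replicate 1 or NCAC replicate 1. Of 4 tested lymphocyte genes Ighm, an immunoglobulin heavy chain, was lower, at 1.70 to 3.46 TPM in CAC and 3.65 to 7.78 TPM in NCAC, and 3 were lower in the compared groups alone or without week 8.

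Adipocyte genes summed to 5399 to 11410 TPM in CAC and 4319 to 8136 TPM in NCAC, and 5 of 13 rose, 4 after rescaling and 8 in the compared groups alone. Cidec and Plin4, which coat fat droplets, rose 3.85-fold and 2.04-fold (adjusted p = 0.0092 and 0.0042). Cfd, adipsin, had 763, 588, 689, 1254 and 641 TPM in CAC, against 131, 423, 160, 302 and 189 TPM in NCAC (adjusted p = 0.011). Of 12 endothelial genes 8 rose and 1 fell, and 3 rose after rescaling. Esam and Eng, a junction protein and a coreceptor of the vessel wall, rose 1.62-fold and 1.60-fold (adjusted p = 0.00011 and 0.00045). Of 12 smooth muscle and pericyte genes 4 rose (3 after rescaling), with Tagln at 88.3 ± 10.4 TPM in CAC and 48.9 ± 5.02 TPM in NCAC (adjusted p = 0.0082). Of 12 fibro-adipogenic progenitor genes 3 rose, with Pdgfra at 9.70 ± 1.73 TPM in CAC and 5.15 ± 1.16 TPM in NCAC (adjusted p = 0.011), and 1 did so after rescaling, without a filter, or without CAC replicate 1, 3 or 4 or NCAC replicate 1, 3 or 5. The share of these genes was near the 24.6% of all genes that rose, and the count is no result about these cells. Of 13 tendon genes Thbs4 rose and Kera fell, and the rise was lost after rescaling (0.069) and without CAC replicate 1 (0.083) or NCAC replicate 5 (0.15). Kera, a keratan sulphate proteoglycan, had 1.21, 5.34, 9.25, 2.57 and 5.74 TPM in CAC, against 39.1, 32.7, 17.3, 18.2 and 5.44 TPM in NCAC (log2 -1.96, adjusted p = 0.012, and 0.063 without CAC replicate 1). Of 10 tested Schwann cell, 6 erythroid, 3 platelet and 3 melanocyte genes none passed limma, and 1, 1, 2 and 0 of them had an unadjusted p under 0.05. In the compared groups alone 3, 3, 1 and 1 passed, the erythroid ones as lower. Of 8 mast cell genes 1 rose, and none without CAC replicate 2. The pigment enzyme Tyr was at 0 in all 10 libraries, and Mlana reached at most 0.361 TPM in CAC and 0.0813 TPM in NCAC.

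Nrep was among the genes with the largest falls. Nrep, a small protein first described in regenerating nerve, had 7.19, 11.8, 27.6, 24.1 and 26.1 TPM in CAC, against 78.2, 86.2, 83.9, 70.2 and 75.2 TPM in NCAC. It fell by 2.12 in log2 units (SE 0.38, adjusted p = 6.1e-05), and the groups lay wide apart. Ddit4l, an inhibitor of mTOR signalling, averaged 10.9 ± 2.61 TPM in CAC and 36.8 ± 10.9 TPM in NCAC (log2 -1.63, adjusted p = 0.0013). Pcp4l1, a small IQ-motif protein, had 115, 189.9, 171, 104 and 144 TPM in CAC, against 237, 492, 569, 365 and 371 TPM in NCAC (log2 -1.46, adjusted p = 0.00043). Chrna2, a neuronal type of acetylcholine receptor subunit, and Lypd6, a modulator of such receptors, fell by 1.38 and 1.41 (adjusted p = 0.00041 and 0.00015). Retnla, a secreted product of alternatively activated macrophages, was at 15.7 ± 2.49 TPM in CAC and 77.7 ± 82.2 TPM in NCAC (log2 -1.65, adjusted p = 0.0062), with NCAC replicate 4 at 218 TPM, and without that library it did not pass (0.056). Aqp4, the water channel of fast fibres, fell by 1.47 (0.015), but not without CAC replicate 1 (0.081) or NCAC replicate 1 (0.057). Lrtm1, Hdhd3, Tmem233 and BC048679 fell by 1.41, 1.42, 1.41 and 1.62.

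Between the NCAC group and the mock-injected animals no gene was called. In NCAC against Con at 6 weeks no gene passed limma at an adjusted p under 0.05, and 130 had an unadjusted p under 0.05 among 13529. The predicted gene Gm15870 passed without the low-value filter, and the predicted gene Gm10040 when the 2 groups were fitted alone. In CAC against Con, which uses the same CAC libraries, 2941 genes were higher (21.7%) and 328 lower (2.42%). Of the 3328 genes higher than in NCAC, 2469 were also called higher than in Con. Of the 432 lower genes, 258 were also called lower than in Con. Some named genes had close values in both comparisons. Hp had a log2 fold change of 5.62 against NCAC and 5.33 against Con, Fkbp5 2.35 and 2.37, and Cox7a1 -0.97 and -0.82. Others passed limma against NCAC alone. Mrln had -0.85 and -0.46, mt-Nd6 -0.86 and -0.34 and Mmp2 1.05 and 0.58 (adjusted p against Con 0.095, 0.33 and 0.18). Slc30a2 and Thbs4 differed from NCAC (0.94 and 1.27) more than from Con (0.19 and 0.37), and their Con means of 5.66 and 132 TPM lay between those of CAC and NCAC.

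At 4 weeks the same contrast gave fewer calls, with 190 genes higher (1.4%) and 10 lower (0.0739%), or 1.48% in either direction. Of the 3328 genes higher at 6 weeks, 182 were also called higher at 4 weeks. Socs3 had a log2 fold change of 3.08 at 6 weeks and 2.40 at 4 weeks, Stat3 1.43 and 1.18, and Ccl8 3.00 and 2.62. Fkbp5 had 2.35 and 0.97, Nfil3 2.69 and 0.82, and Mt1 3.53 and 1.54. Dbp had -1.78 and 0.01, and BC048679 -1.62 and 0.28. The difference between weeks was tested for each gene, and none passed limma at an adjusted p under 0.05, with 722 at an unadjusted p under 0.05 and the smallest adjusted p of these 8 genes at 0.888. With sample quality weights 48 genes passed, and without week 8, 1 did. A call at 6 and not at 4 weeks therefore does not show a larger effect at 6 weeks.

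**Figure D5:**
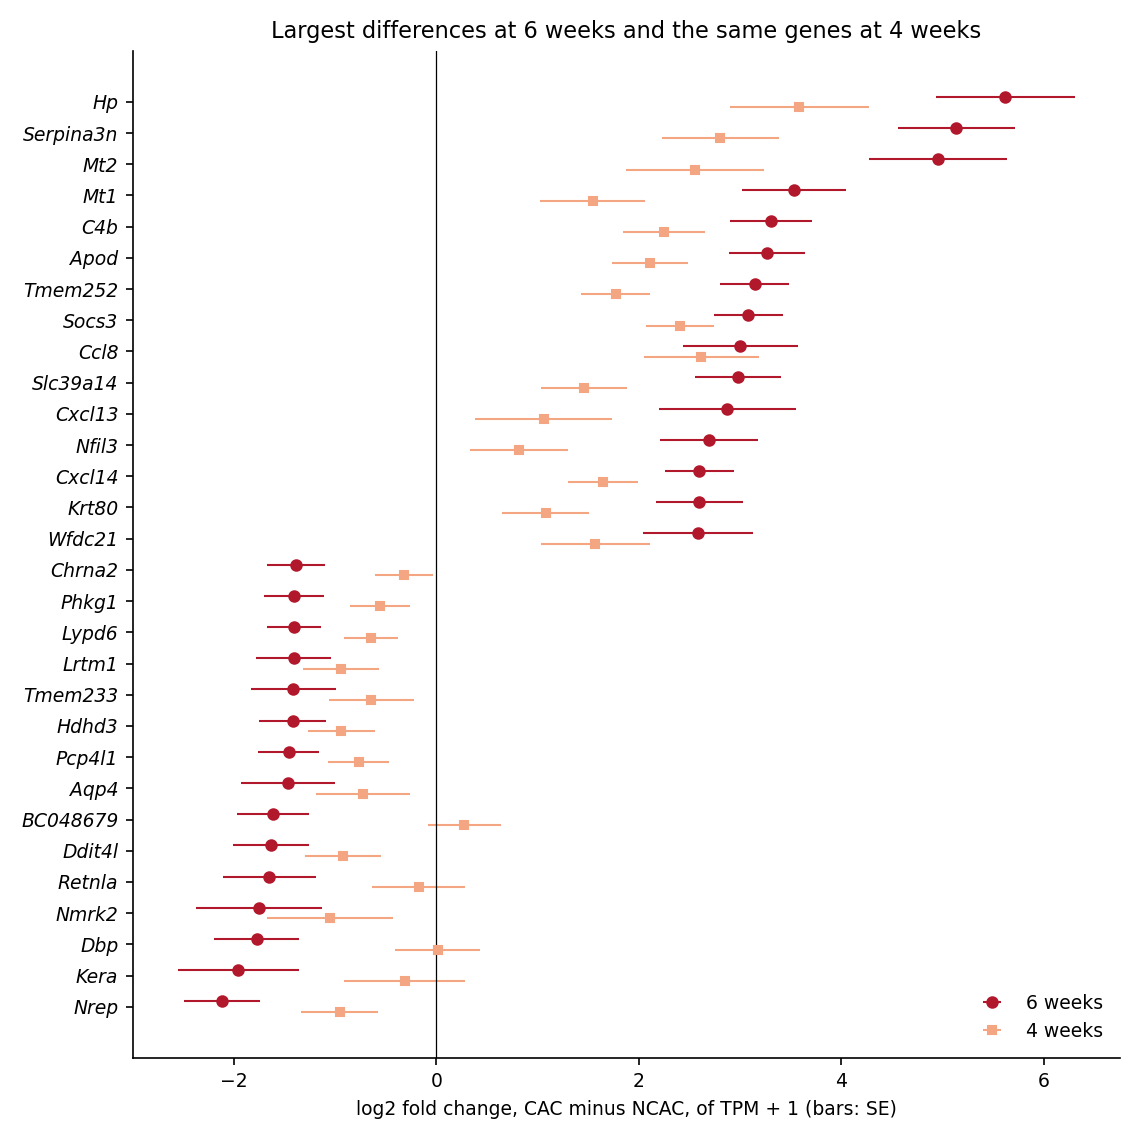
The 15 largest rises and 15 largest falls at 6 weeks are plotted as log2 fold change of TPM + 1 (CAC minus NCAC) at 6 weeks (circles) and 4 weeks (squares), with standard errors as bars. All 15 rises are positive at both weeks and smaller at 4 weeks, and among the falls Dbp and BC048679 lie at or above 0 at 4 weeks. The genes were picked for their size at 6 weeks, which by itself favours smaller values at 4 weeks.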

How the data were processed

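Whole soleus RNA was sequenced by the submitters from TruSeq stranded mRNA libraries, per the labels' protocols. The deposited table gives TPM per gene symbol for 62 libraries. The submitters' processing notes name mm10 as genome build; the sources used here give no aligner or quantifier, and without depth no counting error can be stated. Libraries were grouped by their titles. Genes with at least 1 TPM in at least 5 libraries were fitted as log2(TPM + 1) with limma 3.58.1 in R 4.3.3 (12 groups, empirical Bayes with trend, Benjamini-Hochberg adjustment, two-sided), and an adjusted p under 0.05 was called. The fits were tested on simulated data that took each group's observed spread as its true one. In that setting the fit of all 62 libraries made more false calls than an adjusted p under 0.05 stands for. A fit of the compared groups by themselves did not. P values measure the spread between libraries only.

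Named genes were the 15 largest rises and falls past the threshold with a group mean of at least 5 TPM and no predicted-gene name, up to 4 members of each list with the smallest p, and a panel of genes known from muscle wasting. The members, the 39 pathway lists and the 16 marker lists were chosen with earlier results of these data known. Alternatives were a pseudocount of 0.1, no filter, median-of-ratios rescaling of the TPM, the compared groups alone, these rescaled (chosen after seeing the data), no week 8, a replicate block, sample weights and each library left out. Of 206 named genes all had a GENCODE M21 position, and RefSeq promoters (GRCm38.p6) of 158 were searched. Named genes on chromosome 18 were left out of that search.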

Additional observations from a re-analysis of the deposited data

Results flagged for a closer look

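Within the CAC and NCAC groups, single libraries that stood far from the other 4 were sought for each named gene. Of 412 gene and group combinations examined, 27 had such a library (6.55%), where chance gives about 1 in 20.

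NCAC replicate 4 held 7 of them. It was high for the stretch- and stress-related muscle genes Ankrd2 (2726 TPM), Csrp3 (1387 TPM) and Hspb7, a small heat shock protein of the sarcomere (3291 TPM), for the cell cycle inhibitor Cdkn1a (29.2 TPM) and for the kinase Jak3 (14 TPM). It was low for the RNA sensor Ifih1 (0.746 TPM) and the pericyte receptor Pdgfrb (15.8 TPM).

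Among the other NCAC libraries, replicate 1 was high for Lcn2 (1.97 TPM) and Slc39a14 (5.38 TPM) and low for Des (1133 TPM). NCAC replicate 2 was high for Mmp3 (0.87 TPM) and low for Myh8 (2.98 TPM). NCAC replicate 3 was high for Slc3a2 (16.6 TPM). NCAC replicate 5 was low for the matrix gene Cilp2 (1.41 TPM) and the embryonic myosin Myh3 (13.0 TPM).

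In CAC, replicate 1 was high for Mt1 (1428 TPM) and Map1lc3a (492 TPM). CAC replicate 2 was high for C1qc (24.9 TPM), Irs2 (151 TPM) and Mrln (12.9 TPM) and low for Myh8 (13.8 TPM). CAC replicate 3 was low for the clock genes Dbp (8.29 TPM) and Nr1d1 (16.9 TPM) and for Gadd45a (5.33 TPM). CAC replicate 4 was high for Jak3 (30.4 TPM) and Wfdc21 (54.3 TPM), and CAC replicate 5 low for Mdm2, the ligase of p53 (17.9 TPM).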

How the results depend on the processing

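The 3328 higher and 432 lower genes became 1258 and 1358 after rescaling and 1554 and 1491 in the compared groups alone after rescaling. The lower genes numbered 873 without week 8 and 825 with sample weights. With 1 library left out the counts ran from 1802 to 4386 higher and from 229 to 453 lower genes. Replicate numbers were shared by the groups, but the deviations of same-numbered libraries correlated at 0.0101, 0.158, 0.134, -0.0436 and 0.0527, so they were not treated as pairs. The replicate block gave 3318 higher and 451 lower genes. NCAC against Con gave 1 gene without the filter, in the compared groups alone and there after rescaling, and 0 with any 1 library left out. The difference between weeks gave 48 genes with sample weights, 1 without week 8, and 0 with any 1 library left out. Of 180 named genes that passed, 129 passed in the same direction under every alternative run, and none turned its sign. The calls lost numbered 33 after rescaling, 32 without CAC replicate 1 and 20 without CAC replicate 4 or NCAC replicate 5. The cause was not tested.

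Genes that changed sign did not pass in either case, and their values on the log2 scale follow. Fbxo32 stood at -0.10 after rescaling in both fits, and ran from -0.11 (no NCAC replicate 4) to 0.35 over the 10 fits with 1 library left out, with -0.0027 and -0.08 for CAC replicates 1 and 2. Gadd45a stood at -0.079 after rescaling in both fits and ran from -0.024 (no CAC replicate 4) to 0.46. Mstn ran from -0.027 (no CAC replicate 1) to 0.48. Myh2 stood at -0.15 after rescaling in both fits and with sample weights, and ran from -0.24 (no NCAC replicate 3) to 0.29. Myh4 ran from -1.36 (no NCAC replicate 2) to 0.31 (no NCAC replicate 3). The TPM values keep no depth, so the limit that depth sets on low genes is unknown.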
